A study of Homo sapiens with 6 samples.

Results

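The genes described here are 9 enzymes and transporters of catecholamine metabolism, DDC, DBH, PNMT, SLC18A1, SLC18A2, SLC6A2, SLC6A3, MAOA and MAOB. They were chosen by name, among the 20668 genes of a count table made from SH-SY5Y cells, and 8 of the 9 have a row in it. SH-SY5Y is a human neuroblastoma cell line widely used as a model of catecholaminergic neurons. RNA sequencing of total RNA depleted of ribosomal RNA compared 3 libraries of wild-type (WT) cells with 3 of DNAJC12 knockout cells, in which DNAJC12 had been disrupted with CRISPR/Cas9; both groups are listed as having received no treatment. The study was set up around the role of DNAJC12 in cell invasion. The labels name neither the number of knockout clones nor whether replicates were separate cultures. The p-values therefore reflect variation among these 6 libraries, and that variation may be technical.

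Catecholamines are made from tyrosine in a chain of enzymes. Tyrosine hydroxylase (TH) makes L-DOPA, the aromatic amino acid decarboxylase DDC turns it into dopamine, the dopamine beta-hydroxylase DBH makes noradrenaline inside vesicles, and PNMT methylates noradrenaline to adrenaline, mainly in the adrenal medulla. The vesicular monoamine transporters SLC18A1 (VMAT1, the form of chromaffin and other endocrine cells) and SLC18A2 (VMAT2, the form of neurons) load the amines into vesicles, and the plasma membrane transporters SLC6A2 (noradrenaline) and SLC6A3 (dopamine) take them back up. The monoamine oxidases MAOA and MAOB, on the outer mitochondrial membrane, break them down. DNAJC12 is a J-domain co-chaperone of HSP70 whose known clients are the aromatic amino acid hydroxylases, TH among them.

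Library totals ran from 19321842 to 21869659 counts. DNAJC12 RNA stood at 23.0, 21.4 and 20.04 CPM (counts scaled to library size) in WT replicates 1, 2 and 3 and at 5.91, 5.87 and 4.85 CPM in the knockout, which matches the labels and leaves part of the RNA in place. All 8 sympathoadrenal markers looked for, among them PHOX2A, HAND2, GATA3, ISL1, CHRNA3 and STMN2, were detected. Their summed level was 3291 to 3528 CPM in WT and 3071 to 3243 CPM in the knockout. They moved in opposite directions by edgeR at an adjusted p under 0.05. CHRNA3, HAND2, GATA3 and ISL1 made up the 4 that were lower, and 2 were higher, beside 26.0% of all genes called. Of 7 fibroblast and mesenchymal markers 6 were in the count table, summing to 572 to 592 CPM in WT and 646 to 670 CPM in the knockout, with PRRX1 outside it. Of these 3 passed, in opposite directions, with edgeR adjusted p-values of at most 1.72e-05. PDGFRA (27.6 to 86.5 CPM on average) and COL1A1 (51.8 to 101 CPM) rose and LUM (97.4 to 43.2 CPM) fell. Most of the sum in each genotype came from the markers that did not pass. Of 6 Schwann and glial markers 4 were in the table, summing to 7.72 to 9.68 CPM in WT and 7.37 to 8.35 CPM in the knockout, with SOX10 and FOXD3 at 0 reads. Of 4 serotonergic markers 3 were in it, with 17.5 to 22.6 CPM in WT and 20.03 to 24.9 CPM in the knockout, nearly all from FEV. None of 6 midbrain dopaminergic markers (EN1, EN2, LMX1A, LMX1B, FOXA2, PITX3) was in the table, and each had at most 5 estimated reads over the 6 libraries together. Both the sympathoadrenal and the mesenchymal sums differed between the genotypes without overlap, and their part in the results that follow was not tested. In bulk RNA, fewer cells that express a gene and less of its RNA per cell cannot be told apart.

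In WT cells the RNAs of DBH, DDC and the noradrenaline transporter were high and those of SLC18A2 and SLC6A3 at or near 0. Per transcript length, in TPM (a length-corrected share of all transcripts) summed over each gene's transcripts, DBH was highest in WT at 295 ± 25.5 TPM (SD, n = 3), followed by DDC at 99.3 ± 8.47 TPM and SLC6A2 at 63.6 ± 2.90 TPM. MAOA (34.8 ± 5.22 TPM) and SLC18A1 (28.1 ± 4.64 TPM) came next with overlapping ranges. MAOB (6.43 ± 0.259 TPM) and PNMT (5.21 ± 2.18 TPM) also overlapped. SLC18A2 lay at 0.0194, 0.0405 and 0.0196 TPM in the 3 WT libraries, and SLC6A3 was at 0 in every library of both genotypes. DBH was among the most abundant RNAs of the cells, with 98.9% of the 16403 genes tested below its WT level in CPM.

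The first enzyme of the chain was nearly undetected in either genotype. TH had 2, 0 and 4 estimated reads in WT replicates 1, 2 and 3 and 0, 0 and 1 in knockout replicates 1, 2 and 3, over the 11 of its transcripts that could be assigned. With 7 reads in all it falls under 10 counts, the lowest row total in the table, and no comparison of its level was possible. The dopamine transporter SLC6A3 had no read in any of its 3 transcripts. That allows a level of up to 0.137 to 0.155 CPM in a library by library totals (3 counts). For SLC18A2 the counts were 1, 2 and 1 in WT and 0, 3 and 4 in the knockout, at or near that floor in both genotypes. Limits of this kind account for counting error alone, because sequenced fragments were not tagged as single molecules.

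**Figure D1:**
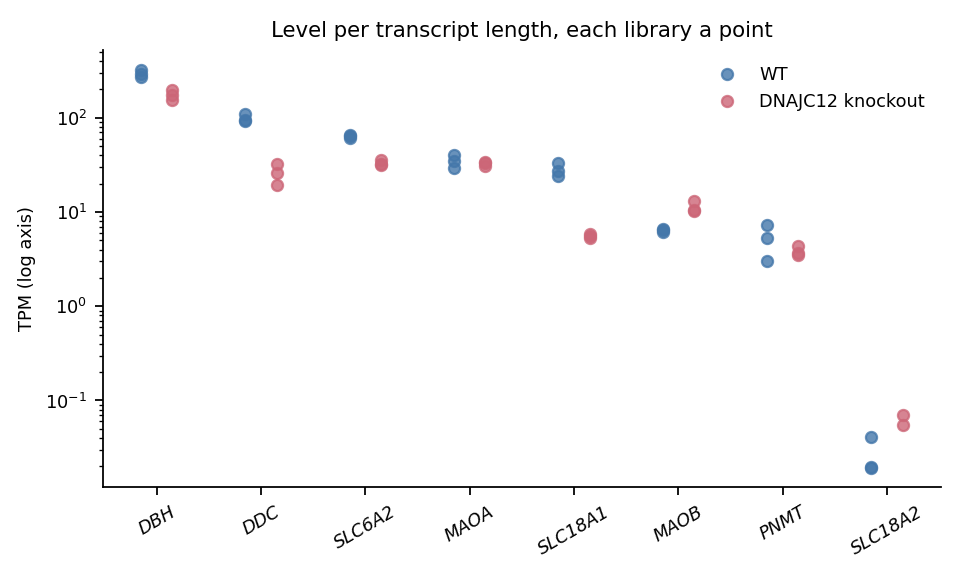
TPM on a log axis for 8 of the genes, in the order of their WT means, with each library as a point (blue, WT; red, knockout). DBH is highest in both genotypes and SLC18A2 lies under 0.1 TPM in every library; its knockout replicate 1, at 0, cannot be drawn on a log axis, and SLC6A3, at 0 throughout, is left out.

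The genotypes were compared with edgeR's quasi-likelihood test, fitted over 16403 genes that passed a filter on low counts, with Benjamini-Hochberg adjustment over all of them and a threshold of 0.05. Of the 9 genes 7 were tested, and SLC18A2 and SLC6A3 were not. The enzyme genes DDC and DBH and the transporter genes SLC18A1 and SLC6A2 fell in the knockout, MAOB rose, and PNMT and MAOA did not pass. These 5 calls in 7 stand beside 26.0% of all genes called, of which 11.5% were lower and 14.5% higher. The median log2 fold change was -0.69 over the 7 genes and 9.19e-06 over all genes tested. With library sizes in place of TMM scaling, the share of higher genes among all calls moved from 55.8% to 45.7%, and the calls of these 7 genes did not change.

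DDC, the pyridoxal phosphate-dependent decarboxylase that makes dopamine, fell more than any other synthesis gene tested. It had 118, 121 and 144 CPM in the WT libraries and 26.5, 43.3 and 34.3 CPM in the knockout libraries. Every knockout value lay far below every WT value. Its log2 change of -1.88 ± 0.15 (SE; edgeR adjusted p = 7.66e-06) left 27.2% of WT, and 1.02% of the genes tested had a more negative fold change. DDC (ENSG00000132437) spans bases 50458442 to 50565405 of chromosome 7 in GRCh38.p14.

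DBH, the copper enzyme that makes noradrenaline, fell less. Its levels were 522, 559 and 638 CPM in WT and 318, 396 and 355 CPM in the knockout, so that the groups did not overlap. The log2 change was -0.69 ± 0.09 (edgeR adjusted p = 0.000312), leaving 62.2% of WT. The gene (ENSG00000123454) lies on chromosome 9 from 133636363 to 133659329. The antisense RNA gene DBH-AS1 had 31 to 53 counts per library against 6251 to 12480 for DBH, and the sources used here do not give the strand setting of the counting.

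PNMT, which makes adrenaline, was low and variable. The WT libraries held 2.71, 1.32 and 3.89 CPM and the knockout libraries 1.88, 2.31 and 2.01 CPM, with all 3 knockout values inside the WT range. These values rest on 26 to 76 counts per library. It changed by -0.35 ± 0.37 in log2 (edgeR adjusted p = 0.543), and the 95% interval of 0.446 to 1.38 times the WT level includes both a loss and a gain. PNMT (ENSG00000141744) lies on chromosome 17 from 39668019 to 39670475.

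SLC18A1, the vesicular monoamine transporter whose RNA was clearly present in these cells, showed the largest change of the 7 genes tested. WT libraries held 40.6, 47.5 and 54.8 CPM and knockout libraries 9.83, 10.7 and 8.72 CPM, a gap several times the spread within either genotype. The log2 change was -2.29 ± 0.13 (edgeR adjusted p = 6.50e-07), or 20.5% of WT, and 0.616% of the genes tested had a more negative value. SLC18A1 (ENSG00000036565) lies on chromosome 8 from 20144855 to 20183136. The fall was not matched by detectable SLC18A2 (ENSG00000165646, chromosome 10 from 117241114 to 117279430), which had at most 4 counts in any library.

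SLC6A2, the noradrenaline transporter of the plasma membrane, fell with little spread. Levels were 283, 292 and 281 CPM in WT and 151, 159 and 149 CPM in the knockout. The groups were tight and well separated, with a log2 change of -0.90 ± 0.06 (edgeR adjusted p = 1.52e-06) and 53.5% of WT left. SLC6A2 (ENSG00000103546) lies on chromosome 16 from 55655988 to 55706192. The gene of the related dopamine transporter, SLC6A3 (ENSG00000142319), lies on chromosome 5 from 1392794 to 1445440.

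Of the monoamine oxidases, MAOB rose and MAOA did not pass. MAOB, which prefers phenylethylamine and also oxidises dopamine, had 11.1, 12.2 and 12.1 CPM in WT and 23.5, 18.5 and 20.01 CPM in the knockout. Each knockout library lay above each WT library, with a log2 change of 0.81 ± 0.12 (edgeR adjusted p = 0.000546) and 175% of the WT level. MAOA, which prefers serotonin and noradrenaline, had 119, 104 and 89.5 CPM in WT and 98.99, 102 and 99.8 CPM in the knockout, all 3 of these inside the WT range. Its log2 change was -0.06 ± 0.10 (edgeR adjusted p = 0.731), with a 95% interval of 0.830 to 1.12 times WT. The pair are neighbours on the X chromosome, MAOA (ENSG00000189221) from 43655006 to 43746817 and MAOB (ENSG00000069535) from 43766610 to 43882450, with 19792 bases between them.

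**Figure D2:**
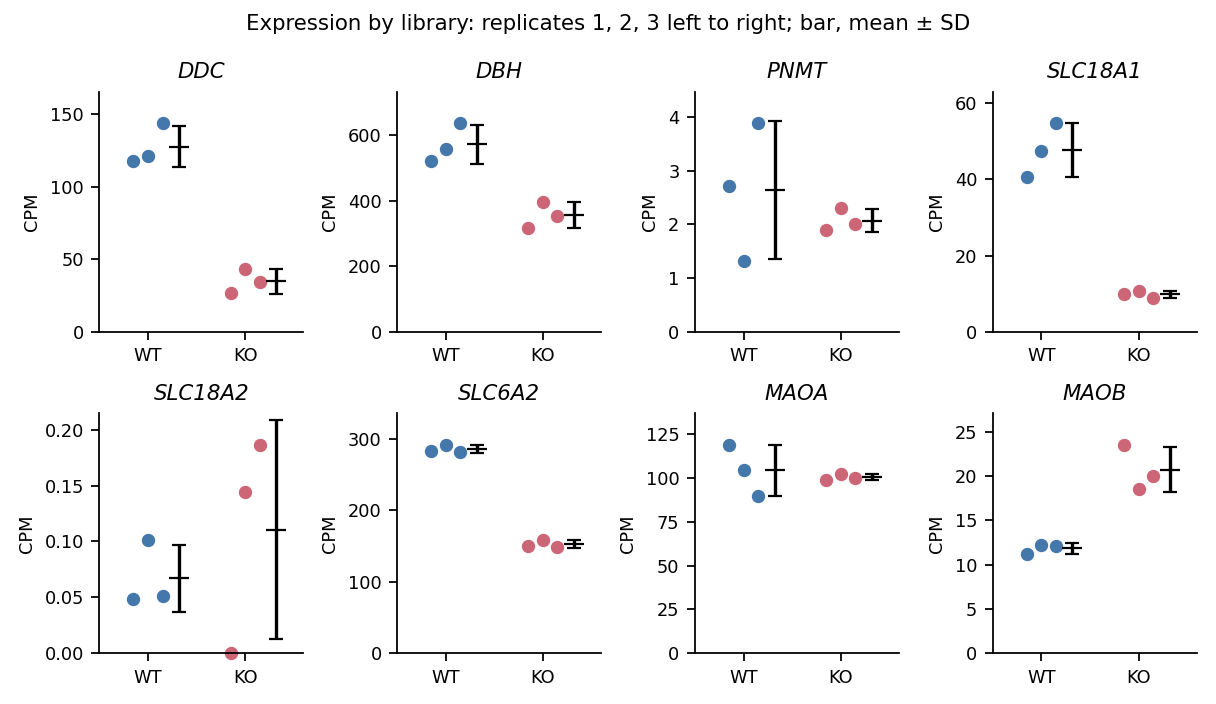
CPM after TMM scaling in each library for 8 of the genes, with replicates 1, 2 and 3 from left to right in each genotype and the mean ± SD (n = 3) in black; each panel has its own axis from 0. The knockout points lie below all WT points for DDC, DBH, SLC18A1 and SLC6A2, above them for MAOB, and overlap them for PNMT, MAOA and SLC18A2.

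The CPM of the 2 genotypes did not overlap for 5 of the 7 genes tested, a separation that 41.7% of all genes tested showed, 21.7% with the knockout above (here MAOB) and 20.1% with it below (here 4 genes). DDC and SLC18A1 fell at least 2-fold, as did 2.87% of all genes tested. The order of levels per length differed between the genotypes. In the knockout DBH stayed highest at 175 ± 21.4 TPM (SD, n = 3), and SLC6A2 (33.3 ± 2.08 TPM) and MAOA (32.6 ± 1.70 TPM) overlapped each other, as did MAOA and DDC (25.8 ± 6.69 TPM). MAOB (11.3 ± 1.49 TPM) stood above SLC18A1 (5.58 ± 0.287 TPM), while in WT SLC18A1 was above MAOB in every library. PNMT followed at 3.84 ± 0.441 TPM.

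Ratios of genes within a library do not depend on library scaling. The ratio of MAOB to MAOA in TPM was 0.155, 0.191 and 0.218 in WT and 0.422, 0.304 and 0.318 in the knockout, so that it was higher in all 3 knockout libraries. On the log2 scale the difference was 0.89 (exact two-sided permutation p = 0.1, adjusted p = 0.1, n = 3 per group). In knockout replicates 1 and 2, 7.36% and 9.22% of MAOB TPM was assigned to short transcripts on 2 and 10.2 estimated reads. The ratio of DDC to DBH was 0.345, 0.327 and 0.339 in WT and 0.124, 0.165 and 0.148 in the knockout. This is a log2 difference of -1.22 (exact two-sided permutation p = 0.1, adjusted p = 0.1), with no overlap between the genotypes. A comparison of 3 libraries with 3 cannot give a p under 0.1 in this test. Of 4 ratios planned 2 were computed, because SLC18A2 and SLC6A3 were at 0 in at least 1 library.

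The transcript files, with estimated reads for each transcript, allowed the genes to be followed by isoform. Of 50 transcripts of the 9 genes in GENCODE release 29, 36 had reads and 21 were tested. By edgeR's test over 52233 transcripts, 6 of the 21 fell and 0 rose, beside 2.76% of all transcripts called and 1.06% called lower. The MAOB transcript ENST00000378069 held 99.3% of the gene's TPM in WT and 92.6%, 90.8% and 98.98% in knockout replicates 1, 2 and 3. Its log2 change of 0.78 ± 0.14 did not pass (edgeR adjusted p = 0.0564). With the replicate number as a block 1 of the 6 passed, the DDC transcript ENST00000357936, and with any 1 library left out 3 or 4 transcripts of the 9 genes did; the directions of the 6 were negative in each of these fits.

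Nearly all DDC RNA was assigned to transcripts that start at the downstream of the gene's 2 RefSeq start sites. These transcripts held 96.8%, 99.6% and 99.6% of DDC TPM in WT and 100%, 99.2% and 98.96% in the knockout. No transcript of identical version in GENCODE release 29 starts at the upstream site, so its use was not measured. In other work the upstream promoter is known as the non-neuronal one and the downstream promoter as the neuronal one. ENST00000357936, which has exon 3, fell from 51.4 ± 4.98 to 12.8 ± 1.16 TPM (SD, n = 3), a change of -1.95 ± 0.12 on the log2 scale (edgeR adjusted p = 0.00236). ENST00000622873, which lacks that 114-base exon (chromosome 7, 50539915 to 50540028), fell from 35.4 ± 3.502 to 9.25 ± 3.16 TPM (-1.88 ± 0.25, edgeR adjusted p = 0.0229).

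Skipping of exon 3 took overlapping parts of DDC in the genotypes. Transcripts without it held 35.1%, 40.1% and 36.9% of DDC TPM in WT and 39.8%, 41.1% and 30.9% in the knockout, ranges that overlap (exact two-sided permutation p = 0.9, n = 3 per group). The third DDC transcript by level, ENST00000617822, varied between 0 and 11.5 TPM within and across genotypes and did not pass (edgeR adjusted p = 0.836). Salmon divides reads among transcripts that share most of their sequence, so values for single transcripts of one gene carry an error that the test does not see.

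The main isoforms of SLC6A2 had unlike changes, a comparison chosen after its values were seen. ENST00000568943 held 43.7, 45.3 and 42.8 TPM in WT and 18.2, 18.9 and 16.4 TPM in the knockout. It changed by -1.25 ± 0.06 on the log2 scale (edgeR adjusted p = 0.00142). ENST00000574918 held 14.6, 11.7 and 12.5 TPM in WT and 11.9, 12.5 and 12.5 TPM in the knockout, overlapping ranges with a change of -0.02 ± 0.09 (edgeR adjusted p = 0.978) and a 95% interval from -0.26 to 0.21.

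The share of ENST00000574918 in SLC6A2 TPM went from 20.4 ± 2.54% to 37.0 ± 2.23% (SD, n = 3). All 3 knockout libraries were above all 3 WT libraries (exact two-sided permutation p = 0.1, the smallest possible). The transcripts are 5933 and 5763 bases long in the files, in versions other than those of GENCODE release 29, so their exons are not described here. The SLC6A2 transcripts assigned through that release held 94.4% of the gene's counts.

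DBH and MAOA were each carried by 1 main transcript. ENST00000393056 held 99.5% of DBH TPM in WT and changed by -0.70 ± 0.11 (edgeR adjusted p = 0.0389), and ENST00000338702 held 99.3% of MAOA TPM. For SLC18A1, ENST00000276373 fell from 16.5 ± 2.75 to 3.23 ± 0.598 TPM (edgeR adjusted p = 0.00789) and ENST00000519026 from 5.30 ± 1.66 to 0.768 ± 0.247 TPM (adjusted p = 0.0344). Of 10 alternatives, the call held in 1 for ENST00000519026, in 3 for the DBH transcript ENST00000393056 and in 4 for the DDC transcript ENST00000622873, always in the same direction. It held in 9 for ENST00000276373 and for the SLC6A2 transcript ENST00000568943, and in 10 for ENST00000357936. The shares of ENST00000276373 and ENST00000519026 in SLC18A1 overlapped between the genotypes.

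**Figure D3:**
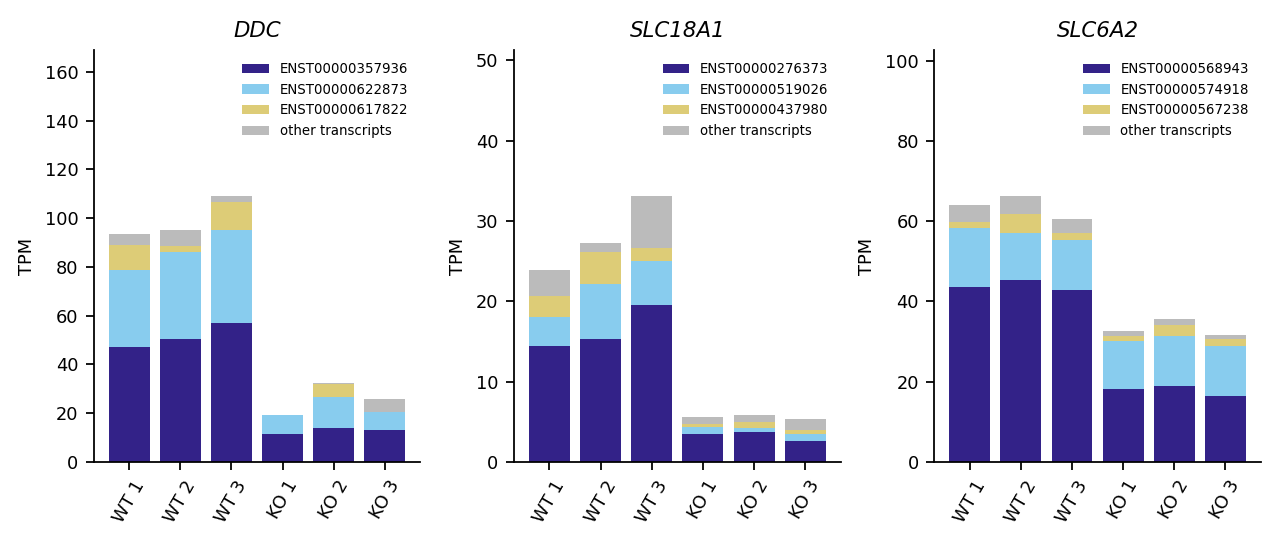
Stacked TPM of the 3 most abundant transcripts and of all other assigned transcripts of DDC, SLC18A1 and SLC6A2 in each library, on axes from 0. The whole bars of DDC and SLC18A1 are shorter in every knockout library than in any WT library, while the ENST00000574918 layer of SLC6A2 stays between 11.7 and 14.6 TPM in all 6 libraries.

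Promoter sequences from RefSeq (GRCh38.p14, 250 bases before and 50 after the start site, 5′ to 3′ on the gene's strand) were available for 5 of the 9 genes. They are shown for the enzyme genes that fell, with both starts of DDC, and for the oxidase pair, of which 1 rose. Capitals mark matches on either strand to GGGCGG (the GC box), TGACGTC (the first 7 letters of the cAMP response element TGACGTCA), AAAGGTCA (an NR4A element) and CATAAATGG. TGACGTC and CATAAATGG were added after the sequences had been read. The windows are chr9:133636113-133636412 for DBH (plus strand), chr7:50561022-50561321 and chr7:50565356-50565655 for the downstream and upstream DDC starts (minus strand), chrX:43656049-43656348 for MAOA (plus strand) and chrX:43882401-43882700 for MAOB (minus strand).
DBH: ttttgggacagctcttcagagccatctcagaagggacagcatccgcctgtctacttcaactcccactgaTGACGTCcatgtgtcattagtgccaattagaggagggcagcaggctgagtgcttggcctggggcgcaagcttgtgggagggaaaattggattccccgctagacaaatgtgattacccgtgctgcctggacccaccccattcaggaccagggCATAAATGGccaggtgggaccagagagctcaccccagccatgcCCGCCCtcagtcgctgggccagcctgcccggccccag
DDC, downstream start: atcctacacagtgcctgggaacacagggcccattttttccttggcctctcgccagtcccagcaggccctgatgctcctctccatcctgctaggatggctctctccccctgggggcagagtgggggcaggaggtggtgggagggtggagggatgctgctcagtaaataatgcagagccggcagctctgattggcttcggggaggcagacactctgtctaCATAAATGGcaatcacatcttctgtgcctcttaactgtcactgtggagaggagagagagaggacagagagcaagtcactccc
DDC, upstream start: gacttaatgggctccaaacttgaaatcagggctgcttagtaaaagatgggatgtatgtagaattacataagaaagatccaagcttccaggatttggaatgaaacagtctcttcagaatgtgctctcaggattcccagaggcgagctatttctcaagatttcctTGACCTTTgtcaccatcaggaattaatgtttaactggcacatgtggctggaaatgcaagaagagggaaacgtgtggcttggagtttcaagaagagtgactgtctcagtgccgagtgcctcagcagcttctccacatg
MAOA: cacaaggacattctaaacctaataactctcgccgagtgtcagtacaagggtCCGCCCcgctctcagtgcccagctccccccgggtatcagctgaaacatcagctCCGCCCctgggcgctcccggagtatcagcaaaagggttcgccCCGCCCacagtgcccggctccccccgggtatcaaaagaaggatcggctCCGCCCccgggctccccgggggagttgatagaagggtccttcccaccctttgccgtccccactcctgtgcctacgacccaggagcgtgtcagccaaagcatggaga
MAOB: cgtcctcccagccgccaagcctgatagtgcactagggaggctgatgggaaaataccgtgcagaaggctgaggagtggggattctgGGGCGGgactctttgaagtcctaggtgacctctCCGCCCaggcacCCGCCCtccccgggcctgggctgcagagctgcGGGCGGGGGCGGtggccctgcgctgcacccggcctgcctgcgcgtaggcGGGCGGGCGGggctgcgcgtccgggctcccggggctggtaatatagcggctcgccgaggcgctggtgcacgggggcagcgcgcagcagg

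DBH and the downstream DDC start shared the letters CATAAATGG at nearly the same place, from position -30 of DBH and -32 of the downstream DDC start, counted from the start site. Among all 34796 RefSeq promoters 0.181% hold these letters. They were chosen after both sequences had been read, so this share does not measure how unusual the match is. The upstream DDC window has no match to them and holds AAAGGTCA from position -87 on the other strand, found in 1.21% of promoters. DBH has TGACGTC, likewise chosen after reading, from position -181, found in 3.43%, and 1 GC box. The oxidase promoters had none of these and were rich in GC boxes, with 4 matches in MAOA and 7 in MAOB, some of them overlapping, where 44.9% of all promoters hold at least 1. GC content was 72.0% for MAOB and 63.0% for MAOA, against 57.3% and 44.3% for the downstream and upstream DDC windows and 59.3% for DBH. Neither GC boxes nor the cAMP element letters were particular to these genes. The window of SLC18A2, which is not shown, has 5 GC boxes and a GC content of 78.7%. It also holds the full TGACGTCA from position -48, found in 1.84% of promoters. No shown window holds the exact letters TATAAA (of the TATA box), the GATA-factor site AGATAA or a homeodomain palindrome. These occur in 11.6%, 10.4% and 0.368% of all promoters. Variant forms of the TATA box were not looked for as such. E-box letters CANNTG, not in capitals, occur 3 times in DBH, 3 times in the upstream DDC window and once in MAOA, and 68.7% of promoters have them. A match describes the letters and does not show that a factor binds there.

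The genes around these 9 were read from 5 lists, 68 genes in all, of which 46 were tested; 7 rose and 14 fell, with a median log2 change of -0.06. These 45.7% called stand beside 26.0% of all genes tested, of which 14.5% were higher and 11.5% lower. By list, 46.2% were called for synthesis and cofactors, 12.5% for breakdown, 40% for other transport, 25% for receptors and 68.8% for transcription factors. For breakdown and receptors the share was not above that of all genes. Of 13 genes of synthesis and cofactor supply that were tested, 4 fell, 2 rose and 7 did not pass. CYB561, a cytochrome of the vesicle membrane that indirectly supplies electrons for the DBH reaction, changed by -1.25 ± 0.07 on the log2 scale. GCH1 (-0.98 ± 0.10), the first enzyme of tetrahydrobiopterin synthesis, and QDPR (-0.72 ± 0.10) and PCBD1 (-0.40 ± 0.08), which recycle that cofactor, fell as well. MOXD1, a relative of DBH, rose from 3.24 ± 0.329 to 6.29 ± 1.17 CPM (SD, n = 3), and the copper pump gene ATP7A rose by 0.48 ± 0.11. The edgeR adjusted p-values of these 6 were at most 0.00757. On length-corrected counts from the transcript files MOXD1 and ATP7A did not pass (adjusted p = 0.290 and 0.0867). ATP7A did not pass on plain sums of the transcript reads either (adjusted p = 0.0977), while its log2 change was 0.52 and 0.57 in these fits.

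Of 8 tested genes of breakdown beyond the oxidases 1 fell and 7 did not pass. The aldehyde reductase gene AKR1A1 fell (-0.45 ± 0.07, edgeR adjusted p = 0.000713). The list holds SULT1A3 and SULT1A4, paralogs so alike that their counts are uncertain. ALDH1A1, an aldehyde dehydrogenase of dopamine neurons, had 0 reads.

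Of 5 other transport genes tested, 1 rose and 1 fell. SLC29A4, the plasma membrane monoamine transporter, was abundant and fell from 205 ± 18.4 to 145 ± 21.5 CPM (SD, n = 3; -0.50 ± 0.11, edgeR adjusted p = 0.00587). SLC18A3, which loads acetylcholine and is the third member of the SLC18 vesicular family, rose from 10.6 ± 1.04 to 35.2 ± 8.88 CPM (1.74 ± 0.18, adjusted p = 4.09e-05). SLC22A2 and SLC22A3, organic cation transporters that can carry monoamines, had 0 reads. The serotonin transporter gene SLC6A4 had at most 6 counts in a library and was not tested.

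Few receptors for catecholamines were detected. Of 15 receptor genes 4 were tested, and 1 rose, the alpha-2C adrenergic receptor gene ADRA2C, from 10.9 ± 0.245 to 22.7 ± 3.05 CPM (SD, n = 3; 1.05 ± 0.12, edgeR adjusted p = 0.000101). The dopamine receptor gene DRD2 was low in both genotypes, at 2.80 ± 0.347 and 2.96 ± 0.411 CPM. ADRA1D, ADRB1, ADRB3, DRD1, DRD3, DRD5 and the trace amine receptor gene TAAR1 had 0 reads.

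Transcription factors that are known to act on genes of this pathway moved both ways, with 8 of 16 lower, 3 higher and 5 not called. The neuronal gene repressor REST rose by 0.92 ± 0.14 on the log2 scale. GATA3 (-0.34 ± 0.06), GATA2 (-0.33 ± 0.06) and CDCA7L, a repressor of MAOA (-0.55 ± 0.11), fell. The edgeR adjusted p-values of these 4 were at most 0.00452. PHOX2A was at 496 ± 23.0 CPM in WT and 470 ± 5.00 CPM in the knockout and did not pass (adjusted p = 0.388). NR4A1, NR4A2, ISL1, HAND2 and SP1 also fell, NR4A2 from 34 counts in the 3 WT libraries together to 4 in the knockout. At these low counts NR4A2 had a result in 12 of the 15 alternatives, and its call held in each of the 12. NR4A1 did not pass on length-corrected counts (adjusted p = 0.0575). ISL1 did not pass without WT replicate 1 or knockout replicate 3 (adjusted p = 0.0729 and 0.0679), and HAND2 did not without WT replicate 1 or 2 (0.0750 and 0.0528). SP1 lost its call without WT replicate 1 or 2 or knockout replicate 2 or 3 (0.0561 to 0.122) and on length-corrected counts (0.153).

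**Figure D4:**
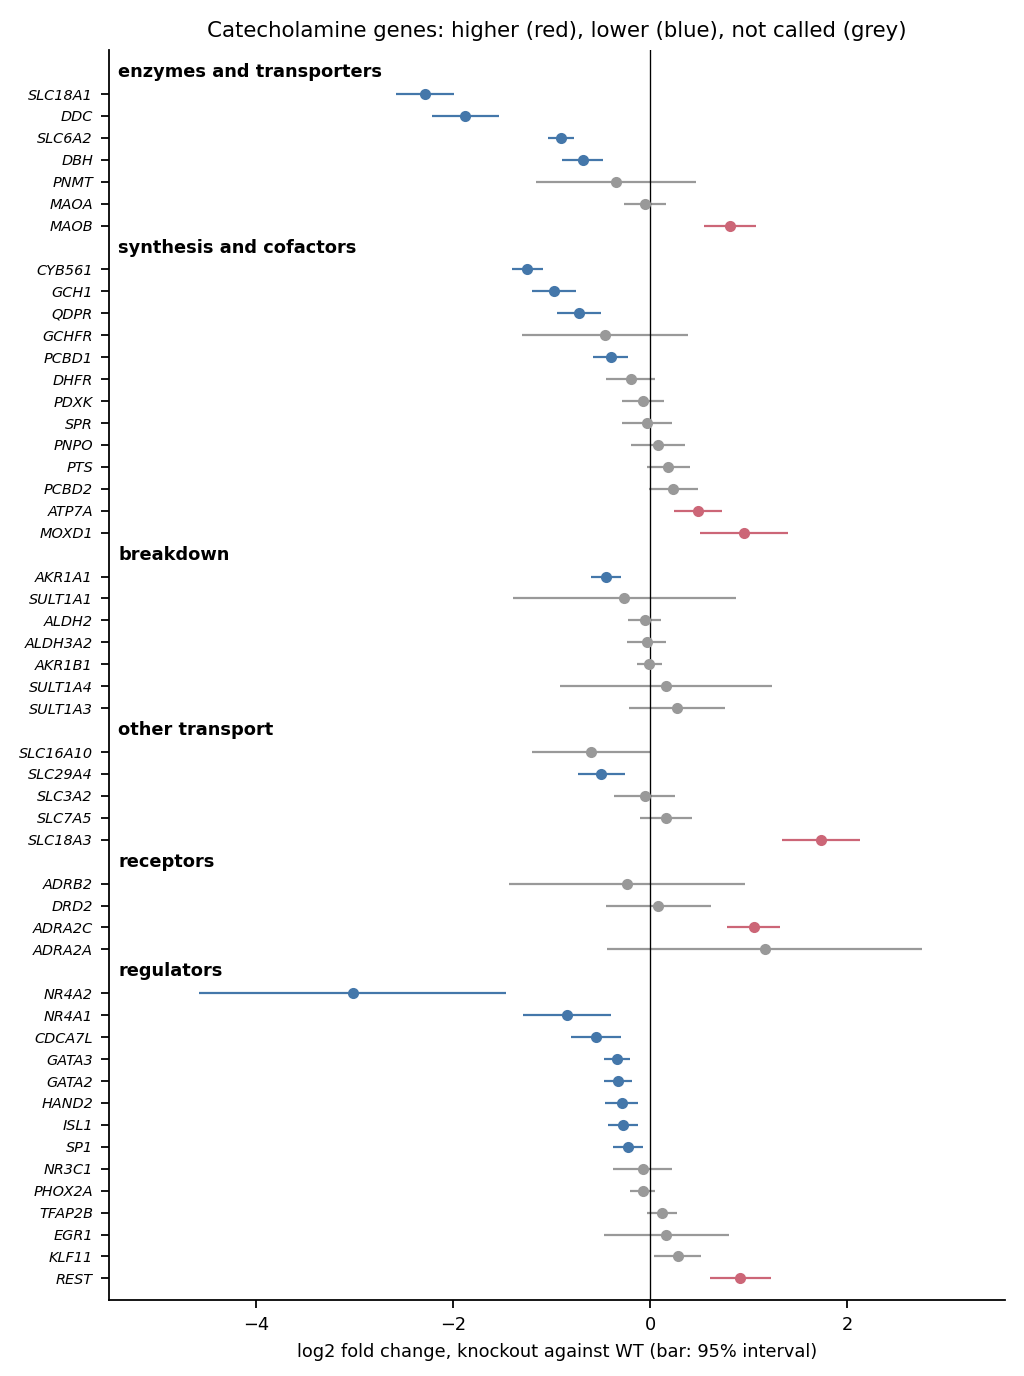
Log2 fold change of knockout against WT with its 95% interval from edgeR for the 7 genes tested and the tested genes of the 5 lists, without 3 that are not reported (red, higher; blue, lower; grey, not called at an adjusted p of 0.05). SLC18A1 and DDC lie farthest to the left among the enzymes and transporters, at -2.29 and -1.88, and MAOB is the one gene among the 7 to the right with its whole interval, at 0.81.

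Genes whose level followed most closely that of each tested gene were found by the Euclidean distance between centred log2(CPM + 1) values over the 6 libraries, which is dominated by the difference between the genotypes. For DDC they were LARGE2 (distance 0.316) and the alpha-tubulin gene TUBA1C (0.391). For DBH they were TRIB2 (0.0871) and the copper importer gene SLC31A1 (0.0887), which went from 103 to 63.6 CPM on average. SLC18A1 was nearest to the molybdenum cofactor sulfurase gene MOCOS (0.161) and to SLC38A11 (0.209), and SLC6A2 to the aminopeptidase gene ENPEP (0.0453) and the syndecan gene SDC1 (0.0663). Adding 1 CPM shrinks the changes of genes at low levels, so a short distance need not mean an equal fold change. SLC38A11 went from 5.23 to 0.325 CPM on average, a log2 change of -3.99 against -2.29 for SLC18A1. For MAOB the nearest genes were the histone deacetylase gene HDAC7 (0.125) and FRY (0.130), both of them higher in the knockout. For PNMT they were LINC02986 (0.212) and KDSR-DT (0.253), and for MAOA FPGT-TNNI3K (0.0883) and ZFP14 (0.0996), none of which passed the threshold.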

How the data were processed

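RNA-seq of 3 WT and 3 DNAJC12 knockout libraries of SH-SY5Y cells was analysed. Per the labels' protocols, ribosomal RNA was removed with Ribo-Zero Gold and the library kit was a stranded one. Salmon 1.10.0, DESeq2 1.42.1, cutadapt 3.5, FastQC and, as build, GRCh38.p14 are listed without roles in the submitters' processing notes. The deposited gene table holds counts, not normalized, with a lowest row total of 10; 403 repeated rows were removed, leaving 20668 genes. Per the file headers, the transcript files hold estimated counts, TPM values and lengths for 251955 transcripts. GENCODE release 29 gave each transcript's gene, ignoring versions (94.2% to 94.6% of reads); structures are given only for identical versions. Estimated counts were rounded to whole numbers for tests.

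Genes were filtered with filterByExpr, scaled by TMM and tested with edgeR 4.0.16 (R 4.3.3); the SE was obtained by dividing the size of the log2 change by the root of F. The fits were first run on simulated counts with 1 dispersion shared by all genes. That setting is simpler than these data and does not test the calls given here. Ratios and shares were compared with exact permutation tests (scipy 1.17.1). One count was 0.0457 to 0.0518 CPM by library totals, without the TMM scaling that the CPM of genes carry. The genes, lists, motifs and tests were chosen with earlier results of these data known. Named genes are the 9 chosen, DNAJC12, list members past the threshold (values for at most 6 a list), the 2 nearest genes of each tested gene, and up to 3 transcripts a gene with a mean of at least 0.05 TPM. PHOX2A, DRD2, SLC6A4, SULT1A3, SULT1A4, DBH-AS1 and the genes at 0 reads were named in addition, after their values were seen. Some list members and markers enter the counts and sums but are not reported here by name. Alternatives were DESeq2 1.42.0, limma-voom (limma 3.58.1), other scalings and filters, transcript-derived gene counts, a replicate block and each library left out. Deviations of WT and knockout libraries with the same replicate number had correlations over genes of 0.14, 0.02 and -0.07. Pairs of unlike number ran from -0.17 to 0.14, the latter for WT replicate 3 with knockout replicate 2. Pairs of the same number did not stand apart from these, so the block was not used for the results.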

Additional observations from a re-analysis of the deposited data

How the results depend on the processing

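The calls and directions of DDC, DBH, SLC18A1, SLC6A2 and MAOB were the same in all 15 alternatives for genes. With length-corrected counts 1225 of all genes fell in place of 1887, and with 1 library left out 1208 (without knockout replicate 3) to 2150. The causes were not tested. Below the threshold throughout, PNMT ranged from -0.68 to 0.028 in log2 with 1 library left out (positive without WT replicate 3) and MAOA from -0.16 to 0.049 (positive without WT replicate 1). Uncalled transcripts that changed sign in this way ranged from -0.14 to 0.050 for ENST00000338702 and from -1.40 to 0.28 for ENST00000542639 (MAOA), from -0.78 to 0.37 for ENST00000269582 (PNMT), and from -0.10 to 0.069 for ENST00000574918 and from -0.85 to 0.23 for ENST00000567238 (SLC6A2). ENST00000269582 stood at 0.35 with limma-voom. Leaving out 1 library left 3 or 4 transcripts of the 9 genes lower in place of 6.

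With the replicate number as a block, 1 of those transcripts was called lower and ENST00000269582 stood at 0.19. Over all genes the block gave 2541 higher and 2024 lower, against 2383 and 1887 without it, and it changed no call of the 7 genes tested. PNMT rests on at most 76 counts per library, which limits what could be detected.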

Other observations

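Several of the genes were highest in the same library within a genotype. WT replicate 3 had the highest WT level of DDC (144 CPM), DBH (638 CPM), SLC18A1 (54.8 CPM) and PNMT (3.89 CPM) and the lowest of MAOA (89.5 CPM) and SLC6A2 (281 CPM). Knockout replicate 2 had the highest knockout level of DDC (43.3 CPM), DBH (396 CPM), SLC18A1 (10.7 CPM), PNMT (2.31 CPM), SLC6A2 (159 CPM) and MAOA (102 CPM) and the lowest of MAOB (18.5 CPM). Not all genes of the pathway followed this order: the cofactor genes QDPR and PCBD1 were lowest in these same libraries, QDPR at 92.4 and 51.0 CPM and PCBD1 at 81.6 and 58.1 CPM, and DNAJC12 was highest in WT replicate 1 (23.0 CPM). The pattern was noticed in the values and was not tested.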
